A study of Mus musculus with 6 samples.

Results

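The genes described here are 41 genes of the cell division cycle and of DNA replication, chosen by their known function and grouped into 17 genes of S phase and replication, 18 genes of mitosis and 6 genes that govern the G1 phase. Every array probe annotated to one of these genes was taken, which gave 93 of the 45281 probes and 39 of the 19057 genes that the platform annotation names. Mki67 and Ccnb1 have no probe in that annotation. RNA came from lens of mice at postnatal day 4, and 6 Illumina bead arrays were hybridised, 3 with RNA of Tdrd7 null and 3 with RNA of Tdrd7 heterozygous mice. All mice were of a mixed background of C57BL/6J and C3A.Blia, and the labels name no wild-type group, so the reference animals also carry an altered Tdrd7 copy. The labels give neither the nature of the allele nor the number of lenses or mice behind an array. The p-values therefore measure only the spread between these arrays, which may be technical. Tdrd7 encodes a Tudor domain protein of RNA granules, and mutations of the gene are a known cause of cataract. Arrays of a group carry the letters a, b and c by their order in the deposited table, and 3 values of a genotype are always given in that order.

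In the lens, cell division takes place in the anterior epithelium and is concentrated in a germinative zone near the equator. Cells that leave this zone stop dividing and elongate into fiber cells, an exit that depends on the CDK inhibitors p27 (Cdkn1b) and p57 (Cdkn1c). Entry into S phase is driven by D and E cyclins, which release E2F factors from the retinoblastoma proteins, and E2F factors switch on the genes that license and copy DNA. Genes of G2 and mitosis are switched on later through the CCAAT box and the cell cycle homology region, an element bound by the MuvB complex. Fiber cells make up most of the lens by volume, so epithelial transcripts are diluted in whole lens RNA. In such bulk RNA, fewer dividing cells and less transcript per cell cannot be told apart.

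Promoter sequences are shown for 3 mitosis genes and 3 replication genes, to show the motifs in which the replication and mitosis sets differ. The sequences come from RefSeq on build GRCm38.p6, run from 250 bases before to 50 bases after the annotated start, and read 5′ to 3′ along the gene. Capitals mark every match on either strand to the E2F-like words TTTCGCG, or TTTGGCG, or TTTCCCG, to the cell cycle homology region words TTTGAA or TTCGAA, or to CCAAT, which reads ATTGG on the other strand.
Cdc20, chr4:118437294-118437593, - strand: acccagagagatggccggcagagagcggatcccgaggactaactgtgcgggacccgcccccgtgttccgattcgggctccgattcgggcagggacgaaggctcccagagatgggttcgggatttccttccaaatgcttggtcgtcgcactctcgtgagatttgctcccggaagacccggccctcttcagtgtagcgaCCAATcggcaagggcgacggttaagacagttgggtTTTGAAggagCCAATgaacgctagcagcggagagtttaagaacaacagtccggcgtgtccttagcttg
Cenpa, chr5:30666636-30666935, + strand: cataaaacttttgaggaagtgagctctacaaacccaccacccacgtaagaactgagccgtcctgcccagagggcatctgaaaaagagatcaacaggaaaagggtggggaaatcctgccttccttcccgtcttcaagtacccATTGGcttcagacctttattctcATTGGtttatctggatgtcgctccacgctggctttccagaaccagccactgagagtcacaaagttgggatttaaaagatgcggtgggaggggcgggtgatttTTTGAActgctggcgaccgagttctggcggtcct
Aurka, chr2:172370521-172370820, - strand: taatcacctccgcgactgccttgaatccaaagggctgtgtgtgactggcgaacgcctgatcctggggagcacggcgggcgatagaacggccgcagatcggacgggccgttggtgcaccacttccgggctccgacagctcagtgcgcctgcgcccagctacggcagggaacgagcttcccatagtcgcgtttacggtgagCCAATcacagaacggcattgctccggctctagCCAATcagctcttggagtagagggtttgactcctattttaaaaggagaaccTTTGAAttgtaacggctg
Mcm5, chr8:75109259-75109558, + strand: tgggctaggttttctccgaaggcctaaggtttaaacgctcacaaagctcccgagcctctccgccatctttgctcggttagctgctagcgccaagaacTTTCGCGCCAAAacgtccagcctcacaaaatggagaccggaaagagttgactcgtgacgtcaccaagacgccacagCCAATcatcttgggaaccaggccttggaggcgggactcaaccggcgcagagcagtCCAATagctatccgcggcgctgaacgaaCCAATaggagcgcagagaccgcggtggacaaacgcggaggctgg
Mcm6, chr1:128359656-128359955, - strand: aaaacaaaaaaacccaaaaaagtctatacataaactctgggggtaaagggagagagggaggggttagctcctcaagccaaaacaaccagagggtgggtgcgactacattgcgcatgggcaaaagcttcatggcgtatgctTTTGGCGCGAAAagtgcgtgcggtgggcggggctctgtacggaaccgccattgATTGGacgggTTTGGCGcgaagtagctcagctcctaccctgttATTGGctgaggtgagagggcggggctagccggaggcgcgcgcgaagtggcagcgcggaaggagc
Cdt1, chr8:122567765-122568064, + strand: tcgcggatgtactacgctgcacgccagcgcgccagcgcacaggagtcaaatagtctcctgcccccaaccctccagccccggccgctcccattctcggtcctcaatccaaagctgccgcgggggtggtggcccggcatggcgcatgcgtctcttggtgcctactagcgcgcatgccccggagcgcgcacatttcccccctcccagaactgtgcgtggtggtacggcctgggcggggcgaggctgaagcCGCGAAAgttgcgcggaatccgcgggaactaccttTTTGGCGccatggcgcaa
In Cdc20, the activator of the anaphase-promoting complex, TTTGAA stood at position -18, with CCAAT at -53 and -8, where the annotated start is 0 and a match is placed by its leftmost base. Cenpa, the centromeric histone, held TTTGAA at 16, and Aurka, a spindle kinase, held it at 32. The promoters of Mcm5 and Mcm6, subunits of the replicative helicase, held no cell cycle homology word. In both of them TTTCGCG and TTTGGCG overlapped on opposite strands, at -153 and -148 in Mcm5 and at -105 and -110 in Mcm6. Cdt1, which loads that helicase on origins, held TTTCGCG at -3 and TTTGGCG at 32.

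The table held promoters for 33 of the 41 genes, 37 promoters in all. An E2F-like word was found in 38.9% of the 18 S phase promoters (Cdc6, Cdt1, Lig1, Mcm3, Mcm5, Mcm6 and Mcm7), in 20% of the 15 mitosis promoters (Birc5, Cdk1 and Nusap1) and in 5.58% of all 32851 promoters of the table. A cell cycle homology word was found in 16.7% of the S phase promoters, in 80% of the mitosis promoters and in 19.2% of all promoters. The 12 mitosis genes with that word were Aurka, Bub1, Bub1b, Ccnb2, Cdc20, Cdk1, Cenpa, Kif11, Mki67, Plk1, Top2a and Ube2c. CCAAT was present in 55.6% of S phase, 86.7% of mitosis and 37.4% of all promoters. TTCGAA reads the same on both strands, and a promoter with overlapping matches was counted once. These are matches of letters and no binding was measured.

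**Figure D1:**
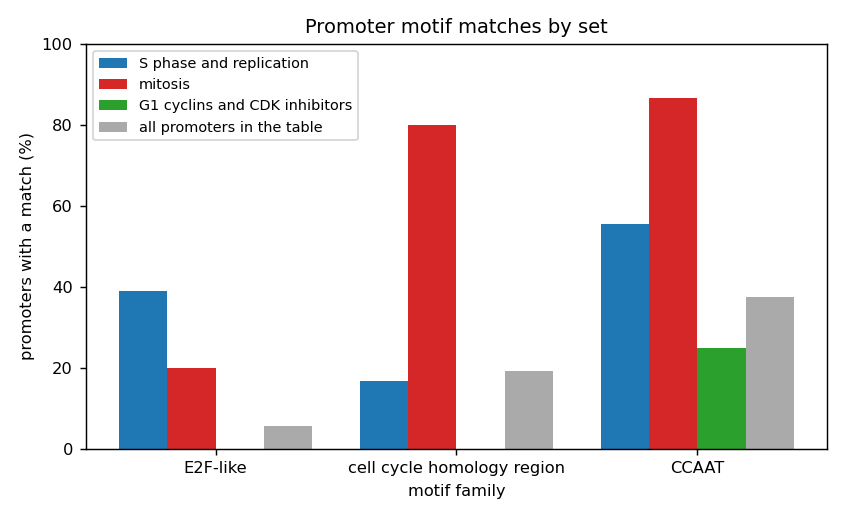
Share of promoters (%, y axis) with at least 1 match to each motif family (x axis) for the S phase, mitosis and G1 sets and for all promoters of the table. The mitosis bar stands at 80% for the cell cycle homology region against 19.2% for all promoters, and the S phase bar at 38.9% for E2F-like words against 5.58%.

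Most of these genes were near the lower end of the arrays' range. A probe was tested if its detection p-value was under 0.05 on at least 3 of the 6 arrays, and 45 of the 93 probes, naming 28 genes, met this. A gene is represented below by its tested probe with the highest mean signal. Of the 28 representative probes 24 were detected on all 6 arrays, and 26 had a mean raw intensity under 300, where the array medians were 69 to 76.6. The normalised signal adds an offset of 16 before the logarithm is taken, which compresses fold changes of such dim probes. The 11 genes with a probe that were not tested included Mcm3, another helicase subunit, Cdc6, which loads the helicase together with Cdt1, and Pcna, the sliding clamp of the DNA polymerases. They also included the mitosis genes Ccna2, Ccnb2, Bub1, Ube2c and Tpx2 and the G1 genes Ccne1, Ccne2 and Cdkn1a. Bub1, Ccnb2, Ube2c and Ccne1 were detected on no array. The only Pcna probe had raw intensities of 82.1, 83.9 and 65.6 in heterozygous lens and 82, 71 and 63.8 in null lens, and it was detected on 1 of the 6 arrays. These genes were not well above background here, and no difference between the genotypes is given for them. A gene that was tested had to be detected on 3 arrays, so the 28 are not a sample of all 41.

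The targeted transcript was lower on every null array. The raw intensity of Tdrd7 averaged 12860 over the heterozygous arrays (SD 336, n = 3) and 1191 over the null arrays (SD 82, n = 3), and the probe was detected on all of them. The part of the gene under this probe was not analysed here. An array detected 30.7% to 34.8% of all probes. Null array b stood apart from the rest: it was the lowest of the 6 arrays for 33% and the highest for 27% of the 8626 genes tested.

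No cell cycle gene passed the test between null and heterozygous lens. With limma and Benjamini-Hochberg adjustment over all 14636 probes, 0 of the 28 measured members passed an adjusted p of 0.05, while 0.0232% of the 8626 genes did, and 0 of the 45 tested member probes passed, while 0.0137% of all probes did. At an unadjusted p under 0.05 the count was 0 of 28 members, against 4.01% of all genes. The null arrays lay wholly on one side of the heterozygous arrays for 1 member, Mcm7, against 11.4% of all genes. Mcm7 was lower, as were 6.13% of all genes by this count, and 0 members were wholly higher, against 5.23%. Of the members 10 were higher and 18 lower in null lens, with a median log2 difference of -0.04, beside -0.01 over all genes tested, of which 47.8% were higher. On this compressed scale the 95% confidence interval lay within 1 log2 unit of 0 for 27 of the 28 members, and that of the remaining one, Timeless, reached 1.11. Under none of the 16 alternatives was a member called, and the smallest adjusted p among them was 0.337, for Rrm2 with array weights.

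**Figure D2:**
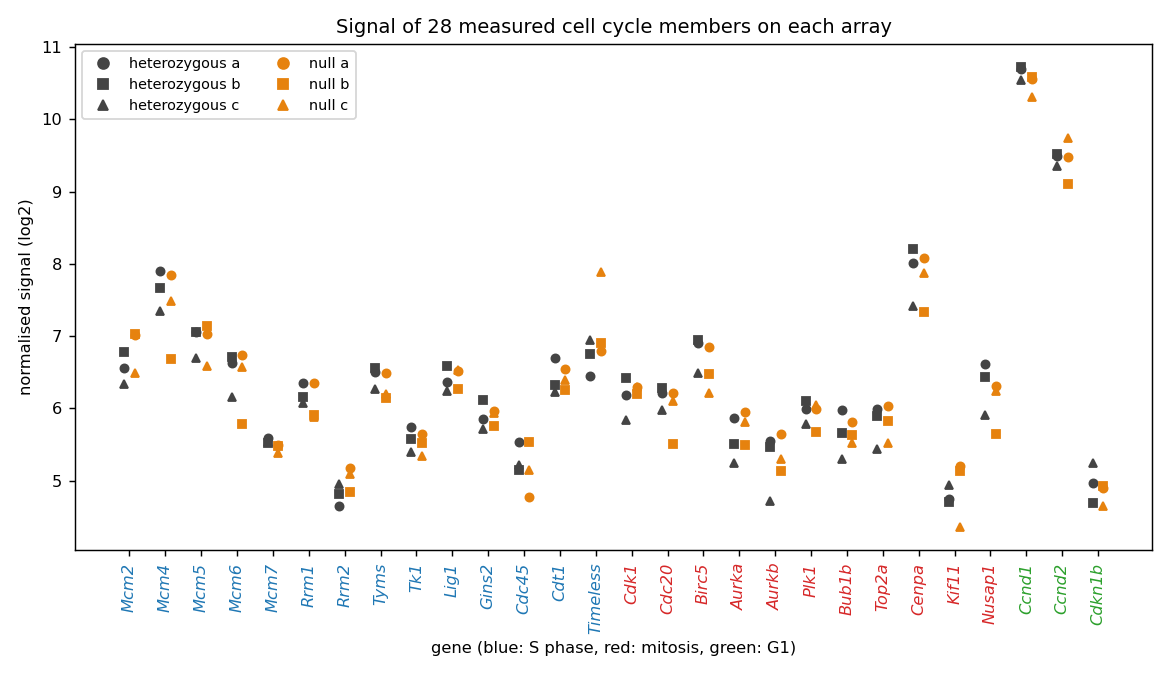
Normalised signal (log2, y axis) of the 28 measured members (x axis), 1 point for each array, with heterozygous arrays in dark grey, null arrays in orange and a circle, square or triangle for array a, b or c. The points of both genotypes overlap for 27 members, the Timeless point of null array c stands at 7.89, and the Mcm4, Mcm6, Cdc20 and Nusap1 points of null array b lie below all other arrays.

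Among the 14 measured S phase genes 4 were higher and 10 lower in null lens, with a median difference of -0.05 on the log2 scale. With median scaling in place of quantile normalisation 7 of the 14 were higher and the median was 0.01, while the median of all genes moved from -0.01 to 0.04. Without null array b 8 were higher and the median was 0.04, so no direction of the set is given.

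The helicase subunits had differences of both signs. Mcm2 had log2 signals of 6.56, 6.79 and 6.33 in heterozygous and of 7.01, 7.03 and 6.49 in null lens. The Mcm2 groups overlapped, and the difference was 0.29 (SE 0.197, 95% interval -0.16 to 0.73, limma adjusted p = 0.964). Mcm4 had signals of 7.90, 7.67 and 7.35 in heterozygous and 7.84, 6.68 and 7.48 in null lens. The low value of Mcm4 in null lens was that of array b alone, and the difference of -0.30 (SE 0.279, limma adjusted p = 0.964) became 0.02 without that array. Mcm6 showed the same shape, with 6.62, 6.70 and 6.15 in heterozygous and 6.74, 5.78 and 6.57 in null lens. Its other tested probes gave 0.16 and 0.22 where the brightest gave -0.13, and without null array b the brightest gave 0.16. Mcm5 had signals of 7.05, 7.06 and 6.70 in heterozygous and 7.03, 7.14 and 6.58 in null lens, with a difference of -0.02 and an interval of -0.45 to 0.41. In both genotypes array c was the lowest for Mcm5.

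By representative probes, Mcm7 was the member without overlap between the groups. Its signals were 5.59, 5.52 and 5.54 in heterozygous and 5.49, 5.48 and 5.38 in null lens. All null values lay below all heterozygous ones by a small margin, and the difference was -0.10 (SE 0.14, unadjusted p = 0.491, limma adjusted p = 0.964). Its raw intensities did overlap, with a heterozygous mean of 101 (SD 5.96, n = 3) and a null mean of 96.1 (SD 4.4, n = 3). A second Mcm7 probe, detected on 0 heterozygous and 2 null arrays and not tested, gave a null mean at least 1.015-fold higher. That probe was near background, with raw intensities of 68.0 to 83.6, so no sign is read from it.

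Timeless, a replication fork protection factor, had the largest difference of the 28. Its representative probe gave 6.44, 6.75 and 6.95 in heterozygous and 6.79, 6.90 and 7.89 in null lens. Only null array c was above all heterozygous arrays, and the difference of 0.48 (SE 0.28, limma adjusted p = 0.964) was 0.13 without it. A second Timeless probe gave 4.97, 4.71 and 5.09 in heterozygous and 6.06, 4.90 and 5.88 in null lens. On that probe null arrays a and c were high and null array b was within the heterozygous range, with a difference of 0.69 (SE 0.279, unadjusted p = 0.0343, limma adjusted p = 0.964). Both tested probes were higher on null array c than on any heterozygous array, and null array a was higher on the second probe alone.

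Enzymes that supply nucleotides or join DNA had differences of either sign. Rrm2, the regulated subunit of ribonucleotide reductase, had signals of 4.65, 4.81 and 4.95 in heterozygous and 5.18, 4.84 and 5.09 in null lens, with a difference of 0.23. It was detected on 1 heterozygous and 3 null arrays, and a second Rrm2 probe, detected on 2 heterozygous arrays and 1 null array, gave -0.42 (unadjusted p = 0.0579). The probes of Rrm2 disagree, so its direction is not settled. Rrm1, the large subunit, gave -0.15 and 0.14 on its tested probes. Tyms, thymidylate synthase, gave -0.16, 0.01 and 0.31, and Tk1, thymidine kinase, gave -0.08. Lig1, which seals Okazaki fragments, gave 0.04. Among the factors that build the helicase, Gins2 gave -0.01 on its brightest probe and -0.34 on another, where every null array lay below every heterozygous one (unadjusted p = 0.0775). Cdc45, the partner of the GINS complex, gave -0.14 and Cdt1 gave -0.01. Among 10 members with several tested probes, 7 had probes of opposite sign, and over all genes with several tested probes this share was 50.2%. Ccnd2 was among the 7 only through a dim probe detected on null arrays alone.

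**Figure D3:**
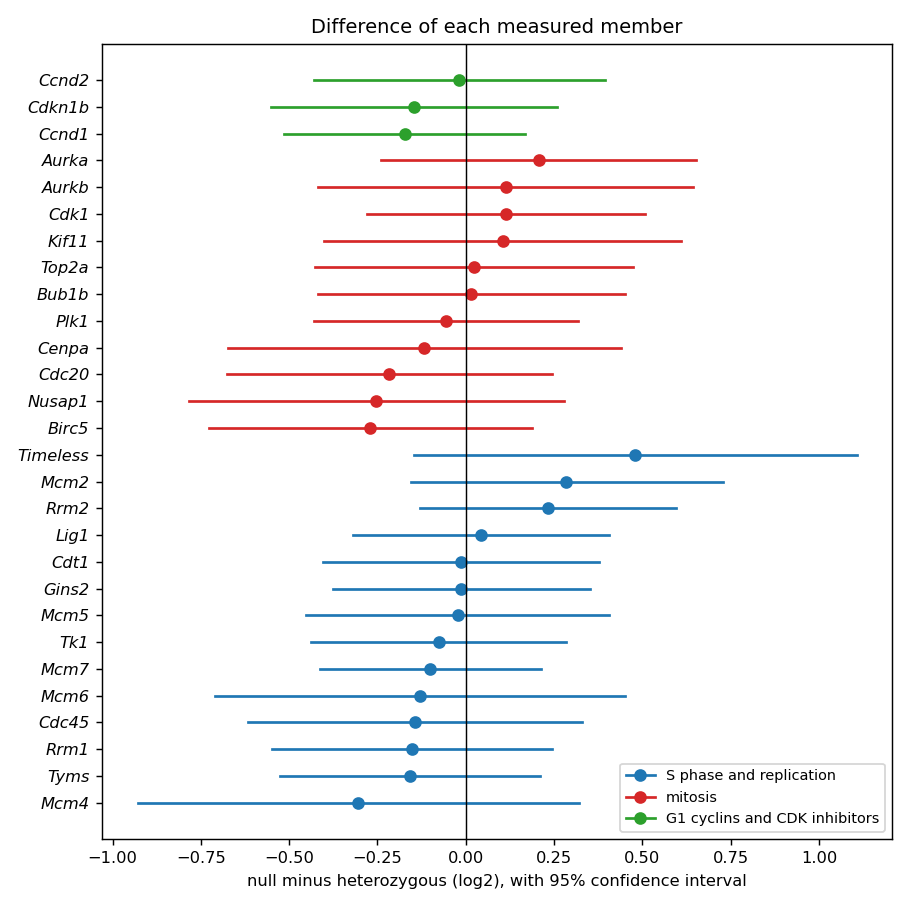
Null minus heterozygous difference (log2, x axis) of each measured member (y axis), as a point with its 95% confidence interval from limma over 3 arrays a genotype. Every interval crosses 0, and the widest on the high side is that of Timeless, up to 1.11.

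Of the 11 measured mitosis genes 6 were higher and 5 lower in null lens, with a median difference of 0.02. Without heterozygous array c 2 of the 11 were higher and the median was -0.15, and without null array a 2 were higher and the median was -0.10, so the split rests on single arrays. All 11 intervals lay between -0.78 and 0.65.

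Top2a, the topoisomerase that untangles sister chromatids, had signals of 5.99, 5.89 and 5.43 in heterozygous and 6.04, 5.83 and 5.52 in null lens. Array c was the lowest of each genotype, the groups overlapped, and the difference was 0.02 (SE 0.201, limma adjusted p = 0.995). Cdk1, the mitotic kinase, gave 6.19, 6.42 and 5.84 in heterozygous and 6.30, 6.19 and 6.29 in null lens. Its null arrays lay close together while heterozygous array c was low, and the difference was 0.11. Cenpa gave 8.01, 8.21 and 7.42 in heterozygous and 8.08, 7.34 and 7.87 in null lens. For Cenpa the low arrays were heterozygous c and null b, and the difference was -0.12 with an interval of -0.67 to 0.44. Without null array b it was 0.09. Nusap1, a spindle microtubule protein, gave 6.62, 6.44 and 5.90 in heterozygous and 6.31, 5.65 and 6.24 in null lens. The same arrays were low, and the difference of -0.25 (SE 0.237) did not pass (limma adjusted p = 0.964) and was -0.04 without null array b. Cdc20 gave 6.21, 6.29 and 5.98 in heterozygous and 6.21, 5.51 and 6.10 in null lens, again with null array b lowest, and its difference of -0.22 became 0 without that array. Its other tested probes gave 0.27 and -0.12, and the former was highest on null array b, at 5.63.

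Birc5, the survivin subunit of the chromosomal passenger complex, gave 6.91, 6.95 and 6.49 in heterozygous and 6.84, 6.47 and 6.22 in null lens. Its lowest array was null c, and the difference of -0.27 (SE 0.204, limma adjusted p = 0.964) was the most negative of the mitosis set. Its other probes gave -0.06 and -0.04. Aurkb, the kinase of the same complex, gave 5.55, 5.46 and 4.72 in heterozygous and 5.64, 5.14 and 5.30 in null lens, with a difference of 0.11. Aurka gave 5.86, 5.51 and 5.25 in heterozygous and 5.95, 5.49 and 5.80 in null lens, the largest positive difference of the set at 0.21 (SE 0.199, limma adjusted p = 0.964). Both aurora kinases were lowest on heterozygous array c, and without it their differences were -0.15 for Aurkb and 0.06 for Aurka. Plk1, a mitotic kinase, differed by -0.06, Bub1b, a spindle checkpoint kinase, by 0.02, and Kif11, a spindle motor, by 0.10. Kif11 was detected on 1 heterozygous and 2 null arrays.

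The D cyclins were measured well above background. Ccnd1 gave raw intensities of 1732, 1780 and 1471 in heterozygous and 1489, 1604 and 1400 in null lens. The log2 signals were 10.70, 10.73 and 10.54 against 10.56, 10.59 and 10.31. The groups overlapped, with a difference of -0.17 (SE 0.153, 95% interval -0.52 to 0.17, limma adjusted p = 0.964). Its other probes gave -0.01 and 0.30. Ccnd2 gave 9.496, 9.52 and 9.36 in heterozygous and 9.48, 9.10 and 9.74 in null lens, so null arrays b and c lay below and above all heterozygous arrays and the difference was -0.02 (interval -0.43 to 0.39). A second bright Ccnd2 probe gave -0.02 as well. A dim Ccnd2 probe, detected on no heterozygous array and on 3 null arrays, had a null mean at least 1.04-fold higher. This probe met the detection filter through the null arrays alone, so no p-value is given for it. Cdkn1b, the p27 inhibitor, gave 4.97, 4.69 and 5.25 in heterozygous and 4.90, 4.92 and 4.65 in null lens, with 2 arrays of each genotype above the detection limit and a difference of -0.15. All 3 measured G1 members were thus lower on their brightest probe, with a median of -0.15. With the probes of each gene averaged the median was 0.04. The Ccnd2 average behind that value includes the dim probe that met the filter through the null arrays alone, so no change of direction is read from it.

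Further genes of the same pathways were taken from lists of 43 replication, 53 mitosis and 38 G1 and cycle exit genes. Of these 84 were tested. With limma 0 passed, against 0.0232% of all genes, and 2 had an unadjusted p under 0.05, against 4.01%. In null lens 46 were higher and 38 lower, where 47.8% of all genes were higher. The replication genes split into 15 higher and 15 lower with a median difference of 0. Those of smallest p were Pole, the leading-strand polymerase, at 0.36, the replication kinase gene Cdc7 at -0.47, its activator Dbf4 at 0.37 and the flap endonuclease gene Fen1 at 0.24. Cdc7 and Dbf4 together form the kinase that fires origins, and their differences had opposite signs. The mitosis genes were 19 higher and 11 lower with a median of 0.05, among them the cohesion factor gene Cdca5 at 0.36, Hmgb2 at -0.36, the microtubule genes Ckap5 at 0.23 and Stmn1 at -0.27. Of the G1 and cycle exit genes 12 were higher and 12 lower with a median of 0, with Rbl1, the p107 pocket protein, at -0.38, E2f3 at 0.39, Ccng1 at 0.31 and E2f5 at -0.59. The E2f5 signal was 6.09 on null array b and 7.48 to 7.84 on the other arrays. Without null array b the difference was -0.11 for E2f5, -0.10 for Stmn1, -0.26 for Cdc7 and 0.62 for E2f3. E2f3 was near background, with raw intensities of 71.1 to 93.8 and detection on 1 heterozygous and 2 null arrays. Pole was detected on 1 heterozygous and 3 null arrays.

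Over the arrays, the mitosis set was lowest on 1 array of each genotype. Each array was set against the mean of the remaining 5. The median mitosis gene stood at 0.25, 0.21 and -0.42 on the heterozygous and at 0.24, -0.20 and 0.05 on the null arrays. On heterozygous array c 10 of the 11 mitosis genes were below the mean of the other arrays, where 48.5% of all genes were, and on null array b 9 were, where 53.5% of all genes were. The lowest value of all was on heterozygous array c for 5 mitosis genes, against 13% of all genes, and on null array b for 4, against 33% of all genes. Below the others on both arrays were 9 of the 11, against 24.3% of all genes, and the exceptions were Top2a and Kif11. Some of the 9 were below by little, such as Cdk1 and Bub1b on null array b, at -0.017 and -0.015. By more than 0.1 on both arrays, a margin chosen after the values were seen, 6 were below (Birc5, Aurka, Aurkb, Plk1, Cenpa and Nusap1), against 11.8% of all genes. These arrays were singled out because the mitosis medians were lowest there, so the shares over all genes are a background and no test.

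The S phase genes had a smaller swing of the same order, with median deviations of 0.16, 0.08 and -0.16 in heterozygous and 0.14, -0.13 and -0.05 in null lens. Of the 14 S phase genes 9 were below the others on both arrays, against 24.3% of all genes. Among them Timeless stood at -0.002 on heterozygous array c and Tk1 at -0.023 on null array b. By more than 0.1 on both, 6 were below (Mcm4, Mcm6, Tyms, Lig1, Gins2 and Cdt1), against 11.8% of all genes. On heterozygous array c the mitosis median was -0.50 to -0.21 under 4 other background, scaling and filter settings. On null array b it was -0.21 to -0.095 under 3 of them and -0.04 without the filter on dim probes, where all genes stood at -0.04 with the filter. Among the further mitosis genes 24 of 30 were below the others on heterozygous array c, against 48.5% of all genes. On null array b 15 of 30 were, against 53.5% of all genes. Their medians on these arrays were -0.16 and 0.01. The further replication genes had medians of -0.10 and -0.06 on these arrays. The further G1 and cycle exit genes had medians of -0.11 and -0.26, the latter below that of the mitosis members.

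**Figure D4:**
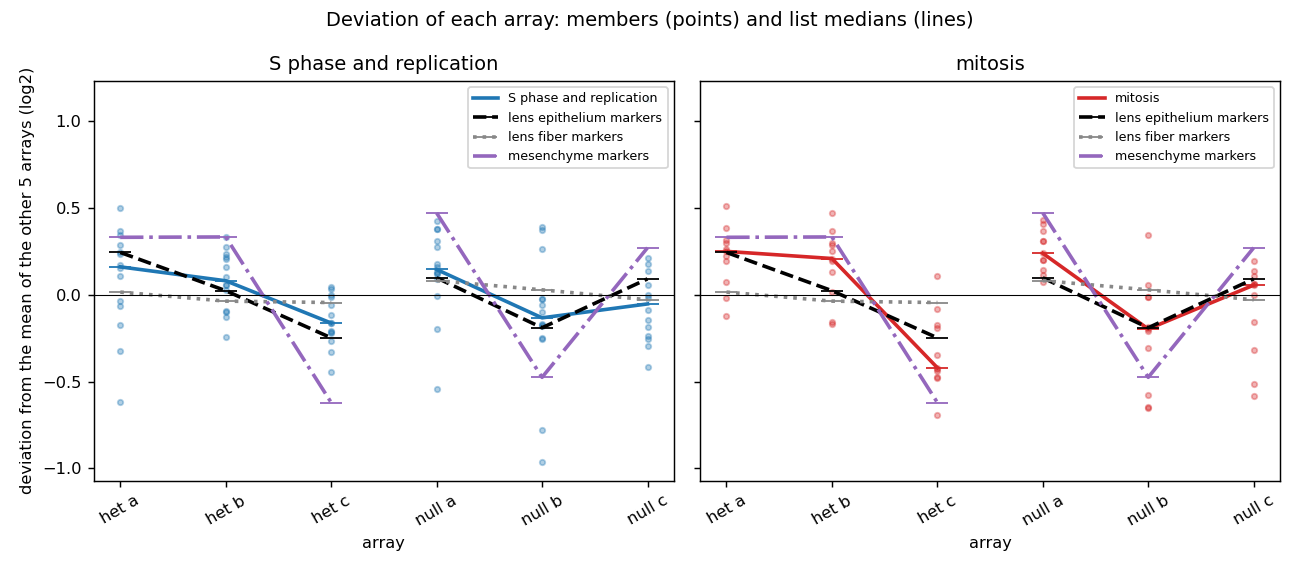
Deviation of each array (x axis) from the mean of the other 5 arrays (log2, y axis) for S phase genes on the left and mitosis genes on the right. Points are single genes and lines join the medians of a list within a genotype. The mitosis line stands at -0.42 on heterozygous array c and -0.20 on null array b, where the line of the epithelium markers stands at -0.25 and -0.19 and that of the fiber markers at -0.05 and 0.03.

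The median of the lens epithelium markers was lowest on the same arrays. Of 15 listed markers 12 were tested, and their median deviation was 0.24, 0.02 and -0.25 in heterozygous and 0.10, -0.19 and 0.09 in null lens. On heterozygous array c 8 of the 12 were below the other arrays, against 48.5% of all genes, and on null array b also 8, against 53.5%. Not every marker followed the median, and 3 of the 12 were highest of all on null array b, where 27% of all genes were. The epithelial cadherin gene Cdh1 had log2 signals of 8.49, 8.51 and 7.65 in heterozygous and 8.37, 7.73 and 8.29 in null lens, lowest on the same arrays as the mitosis genes. Foxe3, a transcription factor of the epithelium, gave 4.97, 4.93 and 4.60 in heterozygous and 4.998, 5.41 and 5.04 in null lens, highest on null array b. Sfrp1, a secreted Wnt antagonist, was also highest there, at 12.45 against 11.89 to 12.15 elsewhere. The summed raw intensity of the 12 epithelium markers was 23770 to 25540 in heterozygous and 19970 to 24820 in null lens. A large part of this sum was the probe of Dkk3, at 12560 to 13380 in heterozygous and 7931 to 12490 in null lens, lowest on null array b. The sum is therefore no measure of the epithelial share. The 12 tested of 15 fiber markers had median deviations of -0.05 to 0.08, and their summed intensity was 177300 to 184300 in heterozygous and 163700 to 187700 in null lens. That sum was carried by probes near the top of the scale, such as Mip at 36190 to 41630 where the brightest probes of the arrays stood at 49500 to 52870, so changes in it could go unseen. Lgsn, a lens glutamine synthetase-like gene of the same list, ran from 4.59 on heterozygous array c to 9.83 on null array a. Gja3, a fiber connexin, did not pass the detection filter.

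Correlations over the 6 arrays were computed for each of the 28 members with the median deviation of each of 4 marker lists, 112 relations in all, with exact permutation over 720 pairings, two-sided. With the epithelium markers 10 of 11 mitosis genes and 11 of 14 S phase genes had a Pearson r above 0, against 53.5% of all genes. The counts were much the same with the fiber markers, 9 of 11 and 11 of 14 against 49.1% of all genes, and with the vascular markers, 10 of 11 and 12 of 14 against 49.7%. Median r with the epithelium markers was 0.78 for mitosis and 0.57 for S phase genes, and with the mesenchyme markers 0.79 and 0.51. Median r was lower with the fiber markers, at 0.32 and 0.15, and with the vascular markers, at 0.35 and 0.17. These differences in median r were not tested. The fiber medians ran only from -0.05 to 0.08 over the arrays, which leaves little spread for a correlation. With the epithelium markers an r above 0.8 was found for 4 mitosis and 2 S phase genes, against 4.8% of all genes. Aurka had an r of 0.88 (exact permutation p = 0.0153) and a Spearman rho of 0.94 (exact permutation p = 0.0167). Nusap1 had an r of 0.90 (exact p = 0.0222) and a rho of 0.77 (exact p = 0.103), and Cdt1 had an r of 0.90 (exact p = 0.0181) and a rho of 1 (exact p = 0.00278). None passed adjustment over all genes, where the smallest adjusted p of a member was 0.584, and the smallest p that 6 arrays allow is 0.00139. The arrays farthest from the median of the epithelium markers were heterozygous c and null b. Without both, r was 0.59 for Aurka, 0.64 for Nusap1 and 0.92 for Cdt1. For the other members with an r above 0.8 it was 0.29 for Aurkb, -0.42 for Cenpa and -0.38 for Mcm6. The median r went from 0.78 to 0.13 for the mitosis genes and from 0.57 to 0.1 for the S phase genes. The relations of the mitosis genes and of the S phase genes with the epithelium markers, each as a set, thus rest on those arrays. With 3 arrays a genotype no correlation within a genotype is given.

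Markers of other cell types varied over the arrays as well. The 4 tested of 10 mesenchyme markers (Mgp, Fbln1, Igfbp5 and Col5a1) had median deviations of 0.33, 0.33 and -0.62 in heterozygous and 0.47, -0.48 and 0.27 in null lens, so the medians were lowest on the same arrays as those of the mitosis genes. Within each genotype Fbln1 and Igfbp5 were lowest on these arrays. Mgp was lowest on heterozygous array a, at 4.79, and Col5a1 was lower on heterozygous array b than on c, at 6.06 and 6.16. Of the mitosis genes 10 of 11 had an r above 0 and 5 an r above 0.8 with the mesenchyme markers, against 53.5% and 5.73% of all genes. Cenpa had the highest, 0.95 (exact permutation p = 0.0264; rho 0.89, exact p = 0.0333), and 0.44 without heterozygous c and null b. The median r of the mitosis genes with the mesenchyme markers went from 0.79 to 0.45 without these arrays, with 9 of 11 above 0 against 51.8% of all genes. That of the S phase genes went from 0.51 to 0.47, with 12 of 14 above 0. No member passed adjustment over all genes (smallest adjusted p = 0.497). The summed raw intensity of these 4 markers was 763.5 to 1585 in heterozygous and 886.4 to 1601 in null lens, and the fibrillar collagen genes Col1a1, Col1a2 and Col3a1 and the proteoglycan genes Dcn and Lum did not pass the detection filter. The 8 tested of 12 vascular markers had median deviations of -0.30, 0.06 and -0.34 in heterozygous and 0.36, 0.07 and -0.03 in null lens. Their median difference between genotypes was 0.44, beside 0.02 for the mitosis and -0.05 for the S phase genes. Of these markers Emcn was detected on 0 heterozygous and 3 null arrays, so it met the filter through the null arrays alone. Rgs5 and Flt1 were each detected on 1 heterozygous and 3 null arrays. The value of 0.44 is therefore not free of the filter and of background. The 4 tested of 7 erythroid markers had median deviations of -1.47 on heterozygous array c and 0.71 on null array b. Their summed raw intensity was 492.5 to 949.5 in heterozygous and 671.5 to 1254 in null lens, while that of the vascular markers was 669.2 to 830.4 and 756.9 to 875.9. Of the macrophage markers 3 of 8, of the retinal markers 3 of 9 and of the cornea markers 2 of 6 were tested, with median deviations of -0.09 to 0.09, -0.34 to 0.25 and -0.24 to 0.25. The part of epithelial or mesenchymal share in the swing of the mitosis genes was not tested.

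Without heterozygous array c and null array b, the arrays on which these genes were low, 0 of the 28 members passed with limma (smallest adjusted p = 0.712). With those arrays left out 4 of 14 S phase genes and 2 of 11 mitosis genes were higher in null lens, with medians of -0.08 and -0.09, beside -0.001 over all genes. The share of all genes that was higher was not computed for these arrays, so no direction of either set is given. This comparison was chosen after the data were seen.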

How the data were processed

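RNA of lens at day 4 was labelled as biotinylated cRNA and hybridised to Illumina bead arrays, per the labels' protocols. Per the file headers, the deposited raw table gives each probe an intensity and a detection p-value on every array. The authors' second table holds normalised intensities, and how they were normalised is not given in the sources used here. Its columns are straight-line transforms of 1 raw column each (largest residual 0.0097). Raw column headers carry genotypes without replicate numbers, and the match by values was not used to number them, so the letters pair nothing. No header or label names an array batch.

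Of 45281 probes 34885 had 1 gene symbol in the platform annotation, 18 several and 10378 none, and those without a single symbol were tested but left unnamed. The raw table was processed with limma 3.58.1 in R 4.3.3: normexp background correction by neqc, with the background inferred from detection p-values, then an offset of 16, quantile normalisation and log2. The filter, a detection p under 0.05 on 3 or more arrays, kept 14636 probes. lmFit and eBayes gave the two-sided test of null minus heterozygous, with no covariate and Benjamini-Hochberg adjustment at 0.05. For a probe detected on no array of a genotype, the bound takes per array its own value or, if higher, that of the dimmest detected probe. Deviations are an array minus the mean of the other 5. The steps were tested on simulated data. Motifs were searched with Python 3.11.15.

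The members and lists were chosen with earlier results of these data known. The text names all members, up to 4 tested genes of smallest p from each of 3 further lists, and Tdrd7. Cdh1, Foxe3, Sfrp1, Dkk3, Mip and Lgsn were named after their values were seen. The number of arrays limits the precision.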

Additional observations from a re-analysis of the deposited data

How the results depend on the processing

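No member was called under any of 16 alternatives, namely other background, scaling, filter, variance and probe choices, the authors' values with and without a replicate block, each array left out, and 2 arrays left out, which was chosen after the data were seen. Over 444 member differences under these alternatives 391 kept their sign and 53 turned it, 30 of those on leaving out 1 array. Of the 28 members 8 kept their sign throughout. The number of probes called, 2, became 1 without the filter, 13 with array weights and 1 with the replicate block on the authors' values, and it was 1 to 3 on leaving out 1 array and 3 without heterozygous array c and null array b. With median scaling the differences that turned sign were 0.041 for Mcm5, 0.042 for Gins2, 0.06 for Cdt1 and 0.05 for Ccnd2. With array weights, which gave null array b a weight of 0.208 and null array a 3.44, they were 0.051 for Mcm4, 0.12 for Mcm6, 0.035 for Rrm1, 0.018 for Gins2, 0.082 for Cdt1, 0.055 for Cenpa and 0.033 for Ccnd2, with 9 of 14 S phase genes higher. With a gene's probes averaged they were 0.084 for Mcm6, -0.091 for Rrm2, 0.052 for Tyms, 0.041 for Ccnd1 and 0.11 for Ccnd2, and the median of the G1 genes was 0.041. The Ccnd2 value and that median include the dim Ccnd2 probe detected on null arrays alone. With the authors' values, with and without the replicate block, the difference was -0.001 for Bub1b. Without both low arrays they were -0.005 for Cdk1, -0.036 for Aurkb, -0.15 for Bub1b, -0.16 for Top2a and 0.098 for Ccnd2. Leaving out 1 array at a time turned the sign of some members, whose differences then ranged from -0.56 to 0.022 for Mcm4, -0.14 to 0.14 for Mcm5, -0.32 to 0.16 for Mcm6, -0.16 to 0.007 for Tk1, -0.036 to 0.14 for Lig1 and -0.10 to 0.098 for Gins2. The ranges were -0.34 to 0.046 for Cdc45, -0.11 to 0.13 for Cdt1, -0.041 to 0.25 for Cdk1, -0.15 to 0.26 for Aurkb, -0.15 to 0.057 for Plk1 and -0.16 to 0.18 for Bub1b. For the rest they were -0.15 to 0.16 for Top2a, -0.35 to 0.094 for Cenpa, -0.048 to 0.37 for Kif11 and -0.17 to 0.15 for Ccnd2. The cause of these turns was not tested. Same-numbered samples of the authors' table did not deviate together (correlations of 0.16, -0.15 and -0.15), so the numbers were not treated as pairs. The detection filter left 11 members with a probe untested.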
